A study of Mus musculus with 6 samples.

Results

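Gap junctions are plasma membrane channels that join the cytoplasm of neighbouring cells, and each is built of connexin subunits from 2 cells that dock end to end. Pannexins are related in topology but form channels in the membrane of a single cell, and the best known product they release is ATP. The genes examined here are the connexins Gja1 (Cx43), Gjc1 (Cx45), Gjb1 (Cx32), Gjb2 (Cx26) and Gjb5 (Cx31.1) and the pannexin Panx1, 6 of the 24214 features in the expression tables, found there by gene symbol. Epithelial cells generally use several connexins at once, Gja1 is the most widespread of them, and junctional coupling is commonly reorganised when epithelial cells take on mesenchymal features.

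The cells, 393P_vector and 393P_ZEB1, were transfectants of a single murine lung adenocarcinoma line that the labels place on a C57BL/6 background and describe as KP lung cancer cells. The study compared those carrying ectopic ZEB1, an epithelial-to-mesenchymal transition (EMT) activating transcription factor that represses epithelial genes (393P_ZEB1, n = 3), with transfectants carrying the empty vector (393P_vector, n = 3). Both were grown in the same medium, total RNA was sequenced on the SOLiD platform, and the comparison asks which transcripts differ when ZEB1 is added to an epithelial line. The sources used here give neither the promoter of the ZEB1 vector nor whether each transfectant was a clone or a pool, and do not say that the 3 samples came from separate cultures, so p-values measure only the spread between these samples, which may be technical.

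Libraries held 57844355 to 79158012 counts in 393P_vector and 54442450 to 61251074 in 393P_ZEB1, and a gene with 3 counts was at 0.0361 to 0.0561 CPM, the count after scaling for depth with TMM factors. Zeb1 was 21.5 ± 0.435 CPM in 393P_vector and 51.7 ± 3.01 in 393P_ZEB1 (SD, n = 3), so the labels were borne out in every library. Of 8 epithelial markers 7 fell (8 without the third 393P_vector library, where Krt19 passed at an edgeR adjusted p of 0.000901), of 7 mesenchymal markers 7 rose (Vim not without the first or second 393P_vector library or the second or the third 393P_ZEB1 library, edgeR adjusted p = 0.0517 to 0.1), and the summed CPM of the epithelial list was 4721 to 5389 in 393P_vector against 2746 to 3043 in 393P_ZEB1, and that of the mesenchymal list 7835 to 8673 against 11086 to 12319. The lung epithelial markers Nkx2-1, Sftpc, Sftpb and Scgb1a1 summed to at most 0.144 CPM in any library, with Scgb1a1 at 0 counts throughout, so the lung label was not visible in them. Leukocyte markers summed to 1.38 to 3.53 CPM in 393P_vector and 1.17 to 1.44 in 393P_ZEB1, endothelial markers to 2.23 to 2.37 and 0.486 to 0.770, and fibroblast markers to 1.89 to 2.69 and 0.756 to 0.822. The third 393P_vector library differed from the other two in single epithelial genes in both directions, with 182 CPM of Epcam against 92.6 and 92.2 but 8.08 CPM of Cldn7 against 20.6 and 14.6, and its epithelial sum was the lowest of the 393P_vector libraries. Values without this library are given where it decides a call or moves a value by more than 1.5-fold, and for Gja1 and Gjc1. Without it 3700 genes were called higher and 3776 lower, against 2539 and 2679 with all 6 libraries. A call gained in this way was therefore common over all genes. In such bulk samples fewer cells expressing a gene and less RNA per cell cannot be told apart.

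Of the 6 genes, 3 were abundant enough to be tested, and each of them changed. Gja1 fell, Gjc1 and Panx1 rose, and each differed by more than 2-fold between the groups with no overlap of the libraries. The edgeR quasi-likelihood test with Benjamini-Hochberg adjustment at 0.05 called 37.6% of 13892 tested genes in either direction, 18.3% higher and 19.3% lower, so a single call is common in this comparison. The size of the change was less so, since 8.82% of tested genes had a lower log2 fold change than Gja1, 5.98% a higher one than Gjc1 and 5.72% a higher one than Panx1. Lack of overlap adds little, since some genes that did not pass the test, such as Gja4 and Cav1, had none either. The share of all tested genes without overlap was not computed. Gjb1, Gjb2 and Gjb5 were at or near the counting limit in both groups.

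**Figure D1:**
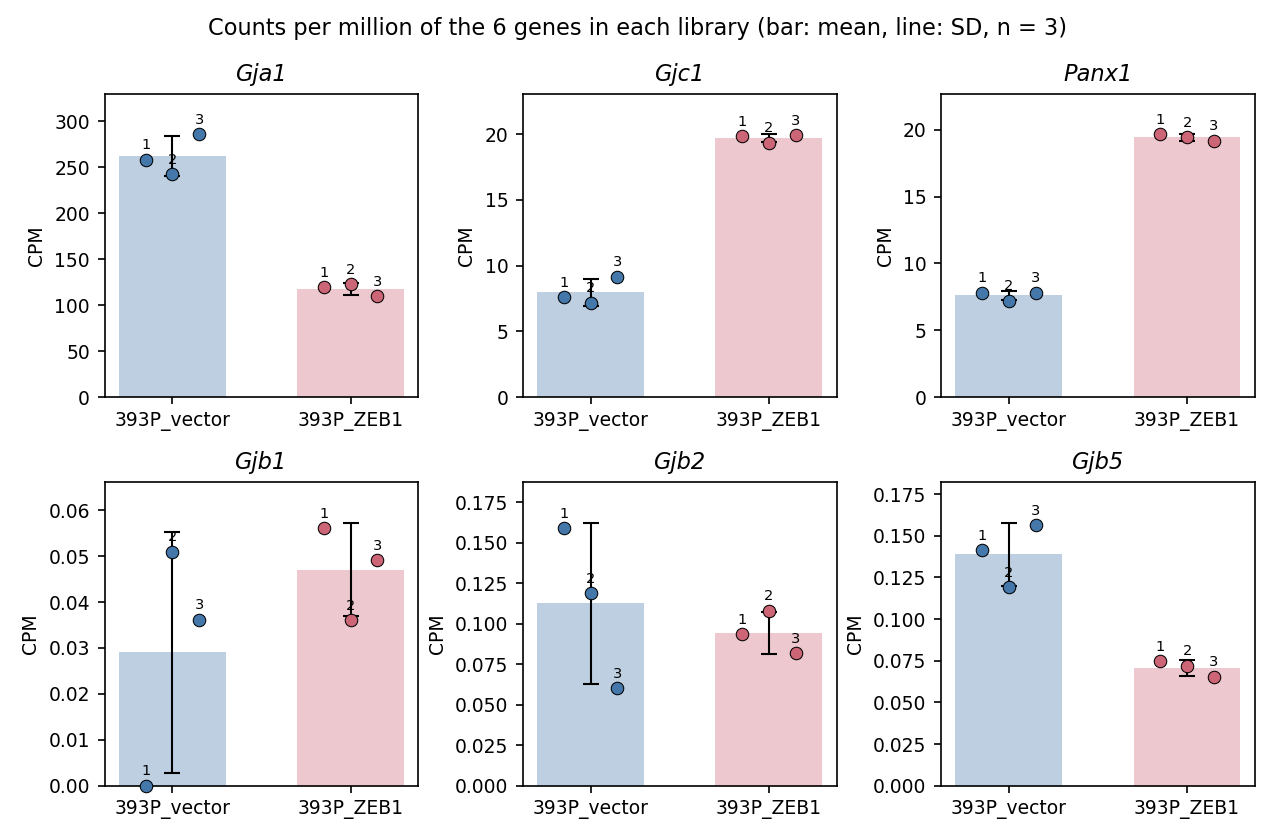
CPM (TMM-scaled, y axis, linear, each panel with its own range) of the 6 genes in the 3 393P_vector and 3 393P_ZEB1 libraries, with points numbered by replicate and a bar for the mean ± SD. Gja1 lies at 243 to 286 CPM in 393P_vector and 110.0 to 123 in 393P_ZEB1, Gjc1 and Panx1 lie higher in each 393P_ZEB1 library, and the 3 beta connexins lie below 0.16 CPM throughout.

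The study expressed microRNAs of the miR-200 family, miR-206 and miR-148a in another murine lung adenocarcinoma line. It also expressed a miR-200 cluster in the ZEB1 transfectants of the line profiled here. In those cells the cluster mitigated the ZEB1-induced expression of 2 vesicular trafficking genes, measured by quantitative PCR. ZEB1 is known as a repressor of miR-200 genes, and the paper names all 3 kinds of microRNA as its known transcriptional targets. The mature microRNA sequences, from RefSeq (GRCm38.p6), are shown because the 3′ UTRs of the 3 expressed genes carry different seed matches. Capitals mark the seed, bases 2 to 8, and the first pair of sequences stand for the 2 seed groups within the miR-200 family.
miR-200b-3p: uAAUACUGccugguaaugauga
miR-200a-3p: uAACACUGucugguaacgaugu
miR-206-3p: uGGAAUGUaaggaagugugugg
miR-148a-3p: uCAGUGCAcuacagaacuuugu
The other members of the miR-200 family share one or the other of the first pair of seeds, and matches are named by the sequence shown. Matches to these seeds were sought as CAGTATT (miR-200b), CAGTGTT (miR-200a), ACATTCC (miR-206) and TGCACTG (miR-148a) on the transcribed strand of the 3′ UTR, taken in GENCODE M21 from the coding transcript of greatest length. Of 11999 tested genes with such a UTR, 15.7%, 20.9%, 11.2% and 15.2% held at least 1 match to the respective seed. A match describes the sequence and not a functional site.

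Gja1 encodes Cx43, the connexin with the highest level in these cells. It lies on the plus strand of chromosome 10 at 56377300 to 56390419 (GRCm38), has 2 exons with a counted length of 3103 bases, and no other annotated gene overlaps it. Its counts were 14612, 14273 and 23752 in 393P_vector and 6388, 6825 and 6713 in 393P_ZEB1. Scaled to library size these were 258, 243 and 286 CPM against 119, 123 and 110.0 CPM, so every 393P_ZEB1 library lay at less than the lowest 393P_vector library and the groups did not overlap. Gja1 was 2.23-fold lower in 393P_ZEB1 (262 ± 21.9 against 117 ± 6.68 CPM, SD, n = 3), a log2 fold change of -1.16 (SE 0.107, edgeR with Benjamini-Hochberg adjusted p = 0.000113). The exact two-sided permutation test gave p = 0.1, the smallest that 3 samples against 3 allow. The highest Gja1 level was in the third 393P_vector library, and without it the log2 fold change was -1.09 (edgeR adjusted p = 1.24e-06).

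The 3′ UTR of Gja1 in GENCODE M21 is 1720 bases long and held 2 matches to the miR-206 seed and 2 to the miR-200a seed, with none to miR-200b or miR-148a. The windows below, on the plus strand of GRCm38, show that 1 match of each kind shares a base with the other. Capitals mark the match in each.
Gja1 miR-206 at chr10:56389161-56389190: cccgctaaaaaACATTCCagtgtttaaaaa
Gja1 miR-200a at chr10:56389167-56389196: aaaaaacattcCAGTGTTtaaaaacttggc
Gja1 miR-200a at chr10:56389607-56389636: tcgaattcacaCAGTGTTcaaatttgaacc
Gja1 miR-206 at chr10:56390285-56390314: taatttgtttgACATTCCatgttaaactac
Both miR-206 matches were followed by an A and thus form 8mers, whereas both miR-200a matches were 7mers. Gjb2, a gene near the counting limit, also held 2 matches to the miR-206 seed. The share of tested genes with 2 or more matches was not computed.

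Gjc1 encodes Cx45, a connexin with low unitary conductance that is best known from heart and vascular development. It lies on the minus strand of chromosome 11 at 102799478 to 102819686, has 5 exons with a counted length of 2901 bases, and overlaps no other annotated gene. Counts were 430, 423 and 760 in 393P_vector and 1061, 1075 and 1215 in 393P_ZEB1, or 7.60, 7.19 and 9.15 against 19.8, 19.4 and 19.9 CPM. The 393P_ZEB1 libraries spanned 19.4 to 19.9 CPM, far above the highest 393P_vector library. Gjc1 was 2.47-fold higher in 393P_ZEB1 (7.98 ± 1.03 against 19.7 ± 0.299 CPM, SD, n = 3), a log2 fold change of 1.30 (SE 0.138, edgeR with Benjamini-Hochberg adjusted p = 0.000237). Reads fell on 3 of the 5 exons at more than 10 per exon in 5 of the 6 libraries and on 4 exons in the third 393P_vector library, so at least 3 exons were covered in every library. Without that library the log2 fold change of Gjc1 was 1.41 (edgeR adjusted p = 2.39e-06).

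Within its 406-base 3′ UTR Gjc1 held 1 match to each of the 2 miR-200 seeds and none to miR-206 or miR-148a. It was the only one of the 6 genes with a match to miR-200b. The windows are read on the minus strand of GRCm38, with the match in capitals.
Gjc1 miR-200a at chr11:102799789-102799818: agagggaaacaCAGTGTTcccaggcacatg
Gjc1 miR-200b at chr11:102799667-102799696: ttttgtatgtaCAGTATTatggtacagttt
The miR-200b match is followed by an A and is an 8mer. Neither these matches nor those in Gja1 were tested for an effect on the transcript.

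Panx1 encodes the ubiquitous pannexin, whose channel opens after caspase cleavage or mechanical stress. It lies on the minus strand of chromosome 9 at 15005785 to 15045478, has 5 exons with a counted length of 2070 bases, and overlaps no other annotated gene. Counts were 442, 424 and 649 in 393P_vector and 1051, 1081 and 1171 in 393P_ZEB1. This amounted to 7.81, 7.21 and 7.81 CPM against 19.6, 19.5 and 19.2 CPM, and the spread between replicates was small in both groups. Panx1 was 2.55-fold higher in 393P_ZEB1 (7.61 ± 0.348 against 19.4 ± 0.233 CPM, SD, n = 3), a log2 fold change of 1.35 (SE 0.118, edgeR with Benjamini-Hochberg adjusted p = 8.18e-05). Each of its 5 exons held more than 10 reads in every library. For Gjc1 and Panx1 the exact two-sided permutation p was again 0.1, the smallest possible.

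GENCODE M21 extends the 3′ UTR of Panx1 to 4010 bases, and its end at 15002128 lies 3657 bases beyond the interval in which the authors counted reads. Both seed matches of Panx1, 1 to miR-206 and 1 to miR-148a, lie in this uncounted stretch, on the minus strand.
Panx1 miR-206 at chr9:15005141-15005170: atttgagaagaACATTCCagcactgattag
Panx1 miR-148a at chr9:15004505-15004534: ctctggtccccTGCACTGagttccacagat
Both are 8mers. The counts therefore do not show whether the transcripts measured here carried these matches, and Panx1 held none to the miR-200 seeds.

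Gjb1, Gjb2 and Gjb5 encode beta connexins of liver and Schwann cells, of the cochlea and many epithelia, and of stratified epithelia. Gjb1 (chromosome X, 101377337 to 101385624, plus strand) had 0, 3 and 3 counts in 393P_vector and 3, 2 and 3 in 393P_ZEB1, and the groups overlapped. Gjb2 (chromosome 14, 57098602 to 57104702, minus strand) had 9, 7 and 5 counts against 5, 6 and 5, which overlapped as well. Gjb5 (chromosome 4, 127354809 to 127358164, minus strand) had 8, 7 and 13 counts against 4, 4 and 4, and here each 393P_vector library lay above each 393P_ZEB1 library. All 3 genes failed the filter on low counts and none was tested in the main model.

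Summed over libraries, the ratio of 393P_ZEB1 to 393P_vector was 1.56 for Gjb1 (8 against 6 counts, exact 95% interval 0.473 to 5.44), scaled to library size. It was 0.889 for Gjb2 (16 against 21 counts, 0.434 to 1.79) and 0.500 for Gjb5 (12 against 28 counts, 0.232 to 1.02). Each interval includes a ratio of 1, and they cover counting error only. With the filter lifted, edgeR with Benjamini-Hochberg adjustment gave log2 fold changes of 0.61 for Gjb1 (adjusted p = 0.673), -0.20 for Gjb2 (adjusted p = 0.836) and -0.97 for Gjb5 (adjusted p = 0.172). A difference was not detectable at this depth for any of the 3, and the intervals would still allow changes larger than 1.5-fold. No exon of Gjb1 or Gjb2 held more than 10 reads in any library. In their 3′ UTRs Gjb2 held 2 matches to the miR-206 seed, and Gjb1 and Gjb5 held none to the 4 seeds.

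Because the genes differ in exon length, their levels were set side by side as CPM per kilobase of exon. The order was Gja1, Panx1, Gjc1, Gjb5, Gjb2, Gjb1 in both groups. In 393P_vector the mean level was 84.5 for Gja1, 3.68 for Panx1 and 2.75 for Gjc1, and in 393P_ZEB1 it was 37.8, 9.39 and 6.79. The levels of the beta connexins were 0.0816 (Gjb5), 0.0469 (Gjb2) and 0.0194 (Gjb1) in 393P_vector and 0.0416, 0.0393 and 0.0315 in 393P_ZEB1. Neighbours in this order that overlapped, and thus did not differ beyond their spread, were Gjb2 and Gjb1 in both groups and Gjb5 and Gjb2 in 393P_ZEB1.

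Gja1 and Gjc1 thus stood closer together in 393P_ZEB1. The ratio of their per-kilobase levels was 31.8, 31.5 and 29.2 in the 393P_vector libraries and 5.63, 5.94 and 5.17 in the 393P_ZEB1 libraries, a difference of -2.47 on the log2 scale. The groups did not overlap, and the exact two-sided permutation p was 0.1, or 0.133 after Benjamini-Hochberg adjustment over the 4 ratios computed. The ratio of Gjc1 to Panx1 was 0.694, 0.712 and 0.836 against 0.720, 0.710 and 0.740, with overlapping groups (log2 difference -0.04, exact permutation p = 0.9). No difference between the changes of these 2 genes was detectable in these libraries, which does not show that they moved alike.

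The tables list 23 connexin and pannexin genes, of which 6 were tested, and the other 17 had at most 15 counts in any library. Of the tested genes 2 rose (Gjc1 and Panx1), 2 fell, Gja1 among them, and 2 did not pass the test, Gja4 among them, with a median log2 fold change of -0.54 against -0.02 over all tested genes. Over all tested genes 18.3% were called higher and 19.3% lower. Gja4 (Cx37), an endothelial connexin, was at 0.246 and 0.111 CPM, a log2 fold change of -1.10 (SE 0.446, edgeR with Benjamini-Hochberg adjusted p = 0.0903). The endothelial markers Pecam1, Cdh5 and Kdr summed to 2.23 to 2.37 CPM in 393P_vector and 0.486 to 0.770 in 393P_ZEB1. Most of this sum was Kdr (mean 1.91 and 0.330 CPM), which fell (log2 fold change -2.51, edgeR adjusted p = 0.000309). Pecam1 did not pass the test (-1.22, edgeR adjusted p = 0.0861). Cdh5, with too few reads for a test, went the other way, at 0.0755 and 0.144 CPM. The part of these markers in the Gja4 values was not tested. Without the third 393P_vector library Gja4 passed the test as lower (edgeR adjusted p = 0.0484), and the family then had 4 genes lower and 2 higher. Calls over all tested genes grew as well, to 3700 higher and 3776 lower, from 2539 and 2679.

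**Figure D2:**
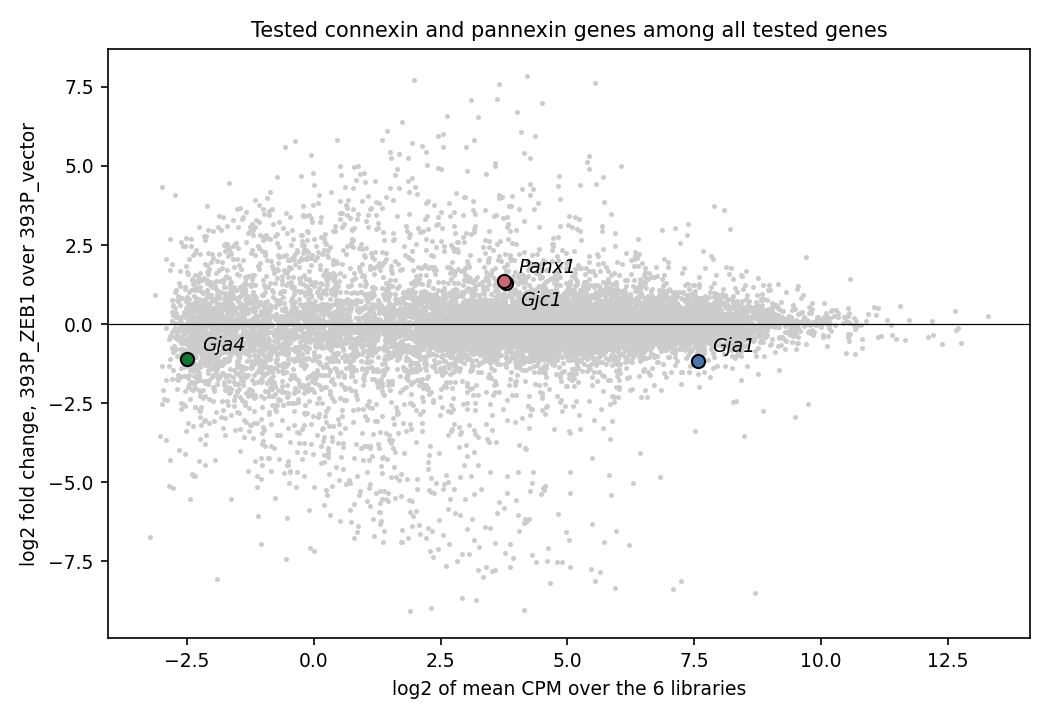
Log2 fold change of 393P_ZEB1 over 393P_vector (y axis) against log2 of the mean CPM (x axis) for the 13892 tested genes in grey with Gja1 (blue), Gjc1 and Panx1 (red) and Gja4 (green) named. Gja1 (-1.16) lies below 0 and Gjc1 (1.30) and Panx1 (1.35) above it, while Gja4 (-1.10) lies at the low-count end.

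The summed per-kilobase level of the 20 listed connexins was lower in 393P_ZEB1. It was 136, 135 and 146 CPM per kilobase in 393P_vector and 75.9, 86.7 and 79.2 in 393P_ZEB1, without overlap (139 ± 5.95 against 80.6 ± 5.51, SD, n = 3, exact permutation p = 0.1). Gja1 made up 61.2%, 57.9% and 63.2% of this sum in 393P_vector and 50.7%, 45.7% and 44.8% in 393P_ZEB1, a mean difference of -13.7 percentage points (exact permutation p = 0.1, 0.12 after adjustment over the 6 values of this kind). Gjc1 made up 1.97% ± 0.169 and 8.46% ± 0.678 (SD, n = 3), and the groups did not overlap (exact permutation p = 0.1). Its share rose with its own level and with the fall of the sum. Both shares are computed from levels given above and are no separate evidence. Gja1 remained the connexin with the highest level in every library.

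**Figure D3:**
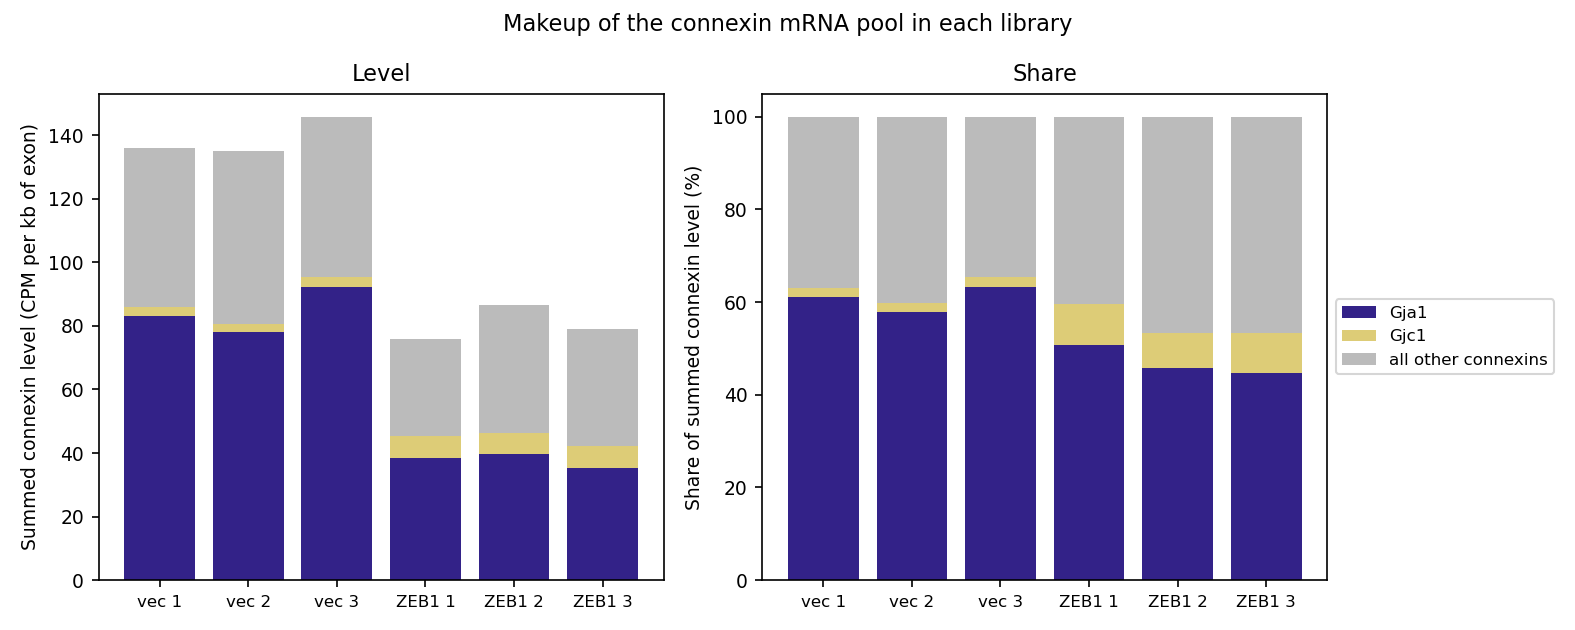
Summed connexin level in CPM per kilobase of exon (left, linear axis from 0) and its percentage makeup (right) in each of the 3 393P_vector (vec) and 3 393P_ZEB1 (ZEB1) libraries, stacked as Gja1, Gjc1 and the other connexins together. The sum is 135 to 146 in 393P_vector and 75.9 to 86.7 in 393P_ZEB1, and the Gjc1 layer widens from about 2% to about 8% of it.

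Chromosomes differed in their overall shift between the transfectants. The median log2 fold change of the other tested genes was -0.29 on chromosome 10 (675 genes), which holds Gja1, 0.27 on chromosome 11 (1154 genes), which holds Gjc1, and -0.14 on chromosome 9 (771 genes), which holds Panx1. Gja1 and Gjc1 thus lay in the direction of their chromosome and Panx1 against it. Measured from these medians, the log2 differences were -0.87 for Gja1, 1.04 for Gjc1 and 1.49 for Panx1, so each kept its direction. On chromosome 10, 31.9% of the other tested genes were called lower and 10.1% higher, and on chromosome 11, 10.1% lower and 29.3% higher. Their part in the changes of Gja1 and Gjc1 was not tested.

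The nearest protein-coding neighbours with enough reads for a test were few. Hsf2, a heat shock factor gene 1083871 bases after Gja1, fell (log2 fold change -0.44, edgeR with Benjamini-Hochberg adjusted p = 0.0314), a call lost without the first 393P_vector library or without the second or the third 393P_ZEB1 library (edgeR adjusted p = 0.0716 to 0.132). Zmym3, 18754 bases after Gjb1, rose (0.65, edgeR adjusted p = 0.00445), while Gjb1 itself stayed at 3 counts or fewer. Adam11, 19316 bases before Gjc1, was at 0.696 and 1.07 CPM (0.62, edgeR adjusted p = 0.07), and Nlgn3, 50414 bases before Gjb1, at 0.348 and 0.173 CPM (-1.01, edgeR adjusted p = 0.119). Of the other neighbours, Gja3 beside Gjb2, CK137956 beside Gjb5, Higd1b beside Gjc1 and Hephl1 beside Panx1 had too few reads for a test. Tbc1d32 beside Gja1, Gm4491 beside Gjb2 and Izumo1r beside Panx1 were not analysed here.

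ZEB1 binds E-boxes, and the promoters of the genes (250 bases before to 50 after the start site, RefSeq, GRCm38.p6) were searched on both strands for CACCTG and TACCTG, that is also for CAGGTG and CAGGTA. Promoters were matched for 5 of the 6 genes, not for Gjc1. Those of Gja1, Panx1 and Gjb5 held neither motif, that of Gjb2 held CAGGTG starting 9 bases before the start site, and 1 of the 4 promoters of Gjb1 held CAGGTG at 168 bases before it. Among 32851 promoters of the same length, 20.2% held the first motif and 29.5% either of them. These shares are per promoter and not per gene, and Gjb1, with 4 promoters, had more chances of a match than a gene with 1. The 2 genes with a match were thus among those at or near the counting limit, and a window without the letters says nothing about binding elsewhere.

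The genes whose log2 CPM followed the expressed genes most closely over the 6 libraries were named from 10101 genes with a mean of at least 5 CPM. For Gja1 they were Hmox1 (Pearson r = 0.9994) and Cdc42ep3 (0.9988), for Gjc1 Tacc1 (0.9994), Fzd6 (0.9993) and Eci2 (0.9992), and for Panx1 Sepp1 (0.9997), Papss2 (0.9996) and Rasef (0.9996). With 2 groups of 3 libraries such values mostly follow the difference between the groups, and 122, 183 and 303 genes exceeded r = 0.99 with Gja1, Gjc1 and Panx1. Hmox1, the inducible heme oxygenase, fell by 1.09 on the log2 scale, close to Gja1, whereas Rasef, a Rab family GTPase, rose by 7.08 and Papss2, a sulfate donor synthase, by 5.40, far more than Panx1.

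Connexins are anchored and assembled with junctional partners, and of 12 tested partner genes 4 rose, 3 fell and 5 did not pass the test (median log2 fold change -0.08). Beside this list and those that follow, 18.3% of all tested genes were higher and 19.3% lower. Tjp1 (ZO-1), the scaffold that binds the tail of Cx43 and several other connexins, had a log2 fold change of 0.07 (SE 0.1, edgeR with Benjamini-Hochberg adjusted p = 0.601), and Cav1 one of -0.45 (edgeR adjusted p = 0.0592). E-cadherin (Cdh1), whose adhesion precedes junction assembly, fell by 4.09 on the log2 scale and occludin (Ocln) by 2.31, with Tjp3 at -1.87. N-cadherin (Cdh2) rose by 2.04, Nov, a matricellular protein that binds Cx43, by 2.42, the actin-binding drebrin (Dbn1) by 0.89 and alpha-catenin (Ctnna1) by 0.66. Dbn1 did not pass when any 1 of the 393P_ZEB1 libraries was left out (edgeR adjusted p = 0.0909 to 0.12), and Cav1 passed as lower without the third 393P_vector library (-0.26, edgeR adjusted p = 0.0205) or the second (-0.54, edgeR adjusted p = 0.0468).

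Phosphorylation of Cx43 controls its assembly, gating and removal. Of 11 tested kinases 2 rose, among them Mapk3 (log2 fold change 1.06), and 2 fell (Prkca, -0.52, and Cdk1, -0.50). The other 7, among them Src (-0.35, edgeR with Benjamini-Hochberg adjusted p = 0.229), did not pass the test, and the median over the 11 was 0.06. Over all tested genes 18.3% were higher and 19.3% lower, so 2 of 11 in a direction is close to the share over all genes. Of 11 tested trafficking and turnover genes 2 rose, the ubiquitin ligase Wwp1 (0.57) and the endocytic adaptor Eps15 (0.50), none fell in edgeR, and 9 did not pass the test (median 0.31). The ligase Nedd4, which acts on Cx43, was among the latter (0.08, edgeR adjusted p = 0.556). Without the third 393P_vector library Src passed the test as lower (-0.57, edgeR adjusted p = 0.000159). Wwp1 lost its call without any 1 of the other 5 libraries (edgeR adjusted p = 0.0513 to 0.117).

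ATP released through Panx1 acts on purinergic receptors and is broken down by ectoenzymes. Of 23 such genes listed 13 were tested, 3 rose, 7 fell and 3 did not pass the test, with a median log2 fold change of -1.27 (13 genes) against -0.02 over all tested genes. The ectonucleotidase Entpd1 (CD39), which degrades ATP and ADP, had 50.1 ± 5.62 CPM in 393P_vector and 0.169 ± 0.0528 in 393P_ZEB1 (SD, n = 3), a log2 fold change of -8.18 (edgeR with Benjamini-Hochberg adjusted p = 5.92e-07). Entpd3 fell by 5.64, Entpd2 fell by 4.27, and Nt5e (CD73), which makes adenosine from AMP, fell by 2.70. Among receptors P2ry2 (-2.75), P2ry12 (-3.38) and Adora2b (-1.27) fell, whereas P2ry1 (4.78), Adora2a (2.94) and P2rx5 (2.69, at few reads) rose. P2ry1 had only 7, 4 and 17 counts in 393P_vector, against 210, 202 and 242 in 393P_ZEB1. P2ry12 was at 4.03, 3.35 and 11.9 CPM in 393P_vector and 0.598, 0.972 and 0.295 in 393P_ZEB1, and without the third 393P_vector library its log2 fold change was -2.58 (edgeR adjusted p = 0.000188). Without the second 393P_vector library that of P2rx5 was 3.37 (edgeR adjusted p = 0.00949). Adora2b lost its call without the second 393P_vector library or without the second or the third 393P_ZEB1 library (edgeR adjusted p = 0.0552 to 0.0757). P2rx7 and P2rx4, ATP-gated channels often studied together with Panx1, had log2 fold changes of -0.25 and 0.13 (edgeR adjusted p = 0.237 and 0.482).

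Other large-pore channels gave a set of values against which to read Panx1. Of 7 tested genes Calhm2 (log2 fold change 1.14) and the volume-regulated anion channel subunit Lrrc8e (0.82) rose, Lrrc8d (-0.54) fell and 4 did not pass the test, among them the obligatory subunit Lrrc8a (-0.24, edgeR with Benjamini-Hochberg adjusted p = 0.11, and 0.021 without the third 393P_vector library), with a median of -0.01. Panx1, at 1.35 (SE 0.118), lay above each of the 7, but near Calhm2 (1.14, SE 0.171). The difference between these genes was not tested.

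**Figure D4:**
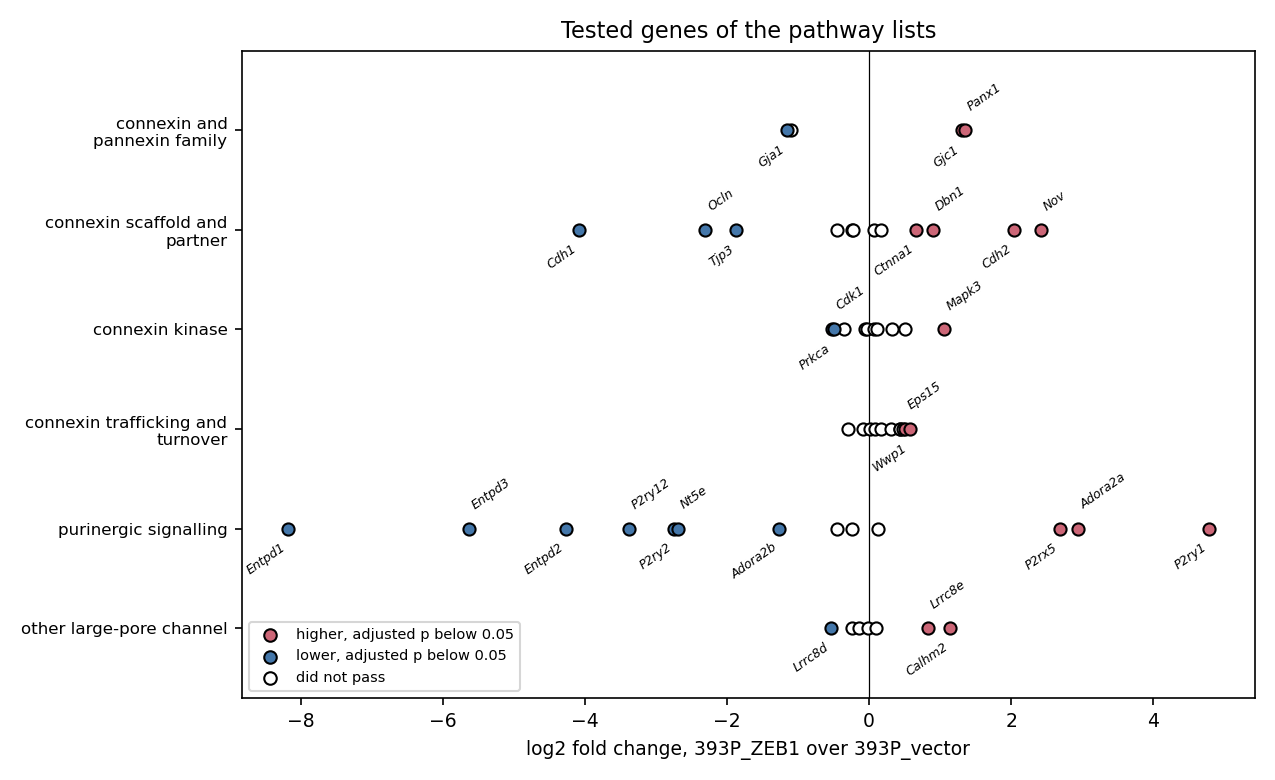
Log2 fold change of 393P_ZEB1 over 393P_vector (x axis) for the tested genes reported from the 6 gene lists (rows), coloured by the edgeR call at an adjusted p of 0.05. The purinergic genes spread from -8.18 (Entpd1) to 4.78 (P2ry1), while the kinase and turnover genes lie between -0.52 and 1.06.

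Leaving out any 1 library kept Gja1 lower and Gjc1 and Panx1 higher, each past the threshold of the edgeR test. Gja4 kept its sign, and its side of the threshold changed as described above.

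**Figure D5:**
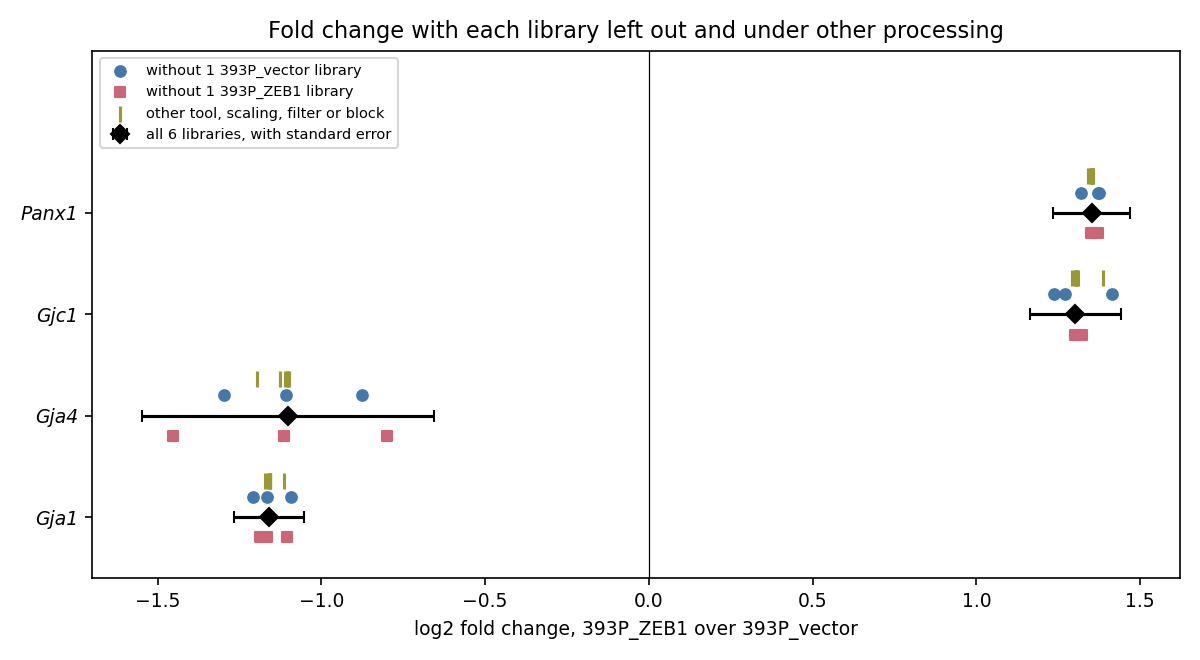
Log2 fold change of 393P_ZEB1 over 393P_vector (x axis) for Gja1, Gja4, Gjc1 and Panx1 in the model with all 6 libraries (diamond, with bars of 1 standard error), without 1 393P_vector library (circles) or 1 393P_ZEB1 library (squares), and with another tool, scaling, filter or replicate block (ticks). Gja1 lies between -1.21 and -1.09, Gjc1 between 1.24 and 1.41 and Panx1 between 1.32 and 1.37, and no gene changes sign.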

How the data were processed

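Total RNA of 3 393P_vector and 3 393P_ZEB1 samples, grouped by their titles, was read on SOLiD instruments. Deposited by the authors for each sample were raw read counts, RPKM (the count scaled by exon length and by library total) and exon lengths for 24214 features on GRCm38. The aligner, counter and strand setting are not given in the sources used here. Gene models came from GENCODE M21 and microRNA and promoter sequences from RefSeq. Deposited RPKM served only as an alternative scale.

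Counts were analysed in R 4.3.3 with edgeR 4.0.16 (filterByExpr, TMM, robust quasi-likelihood fit, group only), and p-values were Benjamini-Hochberg adjusted over 13892 genes at 0.05. CPM used TMM-scaled library sizes. Single values were compared by exact two-sided permutation tests. The procedure was tested on 3 sets of simulated counts with 200 changed genes each. It recovered 78.2% of the changed genes, and 6.76% of its calls were false. The simulated sets held far fewer changed genes than the 37.6% of tested genes called here.

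Genes were named by rule: the 6 genes, the connexin and pannexin family, list genes past the threshold, the 3 closest genes to each tested gene, the nearest neighbours and markers. Further list genes below the threshold (Tjp1, Cav1, Src, Nedd4, P2rx4, P2rx7, Lrrc8a) were named after their values were seen. The genes and lists (partners, kinases, turnover, purinergic, large-pore channels, markers) were chosen with earlier results of these data known. Their counts are descriptions and not independent support. Some genes that the rule names are not reported here.

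Alternatives used DESeq2 1.42.0 and limma 3.58.1, other filters, thresholds and scalings, a replicate block and leaving out each sample. Descriptions and figures used SciPy 1.17.1, NumPy 2.4.6, matplotlib 3.10.9 and pandas 2.3.3 under Python 3.11.15.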

Additional observations from a re-analysis of the deposited data

How the results depend on the processing

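Gja1, Gjc1 and Panx1 kept their direction and stayed past the threshold in each of the 45 recomputed values, with log2 fold changes of -1.21 to -1.09, 1.24 to 1.41 and 1.32 to 1.37 and adjusted p up to 0.0017, 0.00241 and 0.00115. The share of Gja1 in the summed connexin level differed by -13.7 percentage points with deposited RPKM, by -13.6 without division by length, and by -15.5 to -12.5 with 1 library left out. Of 307 recomputed values in all, 266 were labelled the same, 35 moved, 5 passed the threshold newly, 1 lost it and 0 reversed. The label does not mean equal, since it left a wide margin for counts of genes. Totals of 1861 and 3700 genes called higher, against 2539 in the main model, both carried it. Gjb1, Gjb2 and Gjb5 have no such values, since too few reads kept them out of the main model. Apart from genes that a filter removed, the cause of the differences that follow was not tested.

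Genes called higher numbered 2539 in the main model, 3977 with limma voom, 1584 at an adjusted p threshold of 0.01, 1081 in a test against a fold change of 1.5, and 1861 to 3700 with 1 library left out. Genes called lower numbered 2679, 4094, 1545, 1118 and 1784 to 3776, the lowest without the third 393P_ZEB1 library. The 3700 higher and 3776 lower were both reached without the third 393P_vector library. In a test against a fold change of 1.5, 1 family gene was lower. Gja4 passed with limma voom (adjusted p = 0.0161), which called 4 family genes lower. With 1 library left out, 1 to 3 kinase genes and 1 to 3 turnover genes were higher, and 3 to 6 partner genes lower, the 6 without the third 393P_vector library. Values of single list genes with 1 library left out were added after seeing the data. Requiring 10 counts in every sample left 1 purinergic gene higher and 5 lower, against 3 and 7 in the main model. P2ry1 and P2rx5, with as few as 4 and 1 counts in a 393P_vector library, failed that filter and were not tested. Entpd1 and Entpd2, with as few as 6 and 3 counts in a 393P_ZEB1 library, failed it as well.

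Replicates carry the numbers 1 to 3 in each group's labels. Deviations from the group mean correlated at r = -0.126 to 0.195 for equal numbers and -0.12 to 0.157 for unequal numbers, so the numbers were not taken to pair the samples. With the replicate block, log2 fold changes were -1.16 for Gja1, 1.31 for Gjc1 and 1.35 for Panx1 (edgeR adjusted p = 0.00128, 0.00137 and 0.00101), 2180 genes were higher and 2256 lower, and 1 turnover gene was higher. The block changed no call of the connexin and pannexin family.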
